A study of Mus musculus with 4 samples.

Results

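IN7 is 1 of 12 inhibitory neuron subtypes that the authors distinguished among nuclei of the developing mouse superior colliculus. Its members were all nuclei carrying the subtype name IN7 in the deposited table of nuclei, 215 of 9724 nuclei (2.21%) and 215 of 3459 inhibitory neurons (6.22%), which made it the seventh subtype by size. Gene expression was measured by single-nucleus RNA sequencing in C57BL/6J mice at embryonic day 19 (E19) and postnatal days 4, 8 and 21 (P4, P8 and P21), with no treatment or engineered allele given in the labels. Every stage was 1 library made from tissue of several pooled animals, and how many animals, and of which sex, is not given in the sources used here. There was therefore no replicate check: no test was made, and all intervals are 95% intervals for counting error only. How the names were given is not stated in the sources used here. They may rest on the expression values of these same nuclei, so differences between IN7 and the other inhibitory subtypes describe the subtype and do not test it.

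The superior colliculus is the layered roof of the midbrain, which turns visual, auditory and tactile input into orienting and escape movements. Its inhibitory neurons make the transmitter GABA from glutamate with the enzymes Gad1 and Gad2 and load it into vesicles with Slc32a1. They arise from midbrain progenitors, and their lineage expresses transcription factors such as Tal1 and Gata3, grouped below as selector factors. They include local interneurons as well as projection neurons. Around birth such neurons still grow axons and assemble synapses, and in the following weeks they exchange growth-associated genes for those of mature firing and signalling.

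The E19, P4, P8 and P21 libraries contained 30, 35, 86 and 64 IN7 nuclei. Its share of the inhibitory neurons was 3.36% (2.28 to 4.76), 4.74% (3.33 to 6.53), 7.90% (6.37 to 9.67) and 8.65% (6.72 to 10.9) in these libraries (exact Clopper-Pearson intervals). The share was lowest in the E19 library and highest in the P21 library, with 1 library each. The summed counts of unique molecular identifiers (UMIs) in IN7 were 192308, 237909, 906758 and 854079, and 1 UMI was worth 5.20, 4.20, 1.10 and 1.17 counts per 1000000 UMIs of the population (CPM). Median depth per IN7 nucleus was 6078, 6788, 10248 and 12573 UMIs, against 6075, 7778, 9172 and 14140.5 in the other inhibitory neurons. Depth rose with age and nuclei were fewest at E19 and P4, so the IN7 values of those libraries are the least precise. Of the nuclear barcodes, 9 occurred in more than 1 library, 3 of them among IN7 nuclei.

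Of the 215 nuclei, 210 had the same cluster number in the deposited table. That cluster held 356 nuclei, and the remaining 146 were all of the subtype IN5, most of whose 324 nuclei (173) lay in another cluster together with 5 IN7 nuclei. In the second set of reference labels that the authors transferred, 192 IN7 nuclei (89.3%) carried 1 label, and they made up 96.5% of the 199 nuclei with it. In the first set, 105 IN7 nuclei (48.8%) carried the label ISC5, 67 ESC2 and 43 ESC1. The ESC labels together covered 51.2% of IN7, 42.2% of the other inhibitory neurons and 97.1% of the excitatory neurons, so this set of labels did not separate IN7 from the excitatory class.

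IN7 carried the GABAergic machinery, with less Gad2 than most other inhibitory neurons. A UMI of Gad1 or Gad2 was present in 30 of 30, 33 of 35, 85 of 86 and 64 of 64 IN7 nuclei at E19, P4, P8 and P21, against 25.9% to 33.4% of excitatory neurons, whose median depth was 8051.5, 11738, 14158 and 19601 UMIs. Gad1 stood at 156 (105 to 223), 231 (174 to 301), 245 (214 to 279) and 225 (194 to 259) CPM in the order E19, P4, P8 and P21, which is the order of all values below, and at 287, 263, 285 and 237 CPM in the other inhibitory neurons. Gad2 was 426 (339 to 529), 269 (207 to 344), 254 (222 to 289) and 155 (129 to 183) CPM in IN7 and 561, 499, 461 and 384 CPM in the other inhibitory neurons. IN7 ranked 11th of the 12 subtypes for Gad2 at E19 and was the lowest at P4, P8 and P21. Between E19 and P21 the log2 change of Gad2 was −1.43 (−1.87 to −1.05) in IN7 and −0.54 in the other inhibitory neurons; here and below, the interval of a change between stages is that of the plain ratio, without the added CPM, and so lies off centre for low genes.

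The vesicular GABA transporter Slc32a1 was at 88.4 (51.5 to 142), 71.5 (41.6 to 114), 57.3 (42.8 to 75.2) and 107 (85.8 to 131) CPM in IN7 against 111, 91.9, 54.5 and 75.9 CPM. Abat, which breaks GABA down, was at 46.8, 63, 136 and 244 CPM in IN7, a log2 change of 2.26 from E19 to P21 compared with 1.10 elsewhere. Slc17a6, the vesicular glutamate transporter of excitatory neurons, was detected at 57.2 (28.6 to 102), 16.8 (4.58 to 43), 14.3 (7.63 to 24.5) and 2.34 (0.284 to 8.46) CPM in IN7 and at 45.9, 39.7, 20.2 and 8.8 CPM in the other inhibitory neurons. Of the 7 genes of GABA and glycine transmission that could be compared, none was 2-fold higher or lower in all 4 libraries; over all genes compared, 0.584% were higher and 1.51% lower, so few calls would be met in 7 genes.

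**Figure D1:**
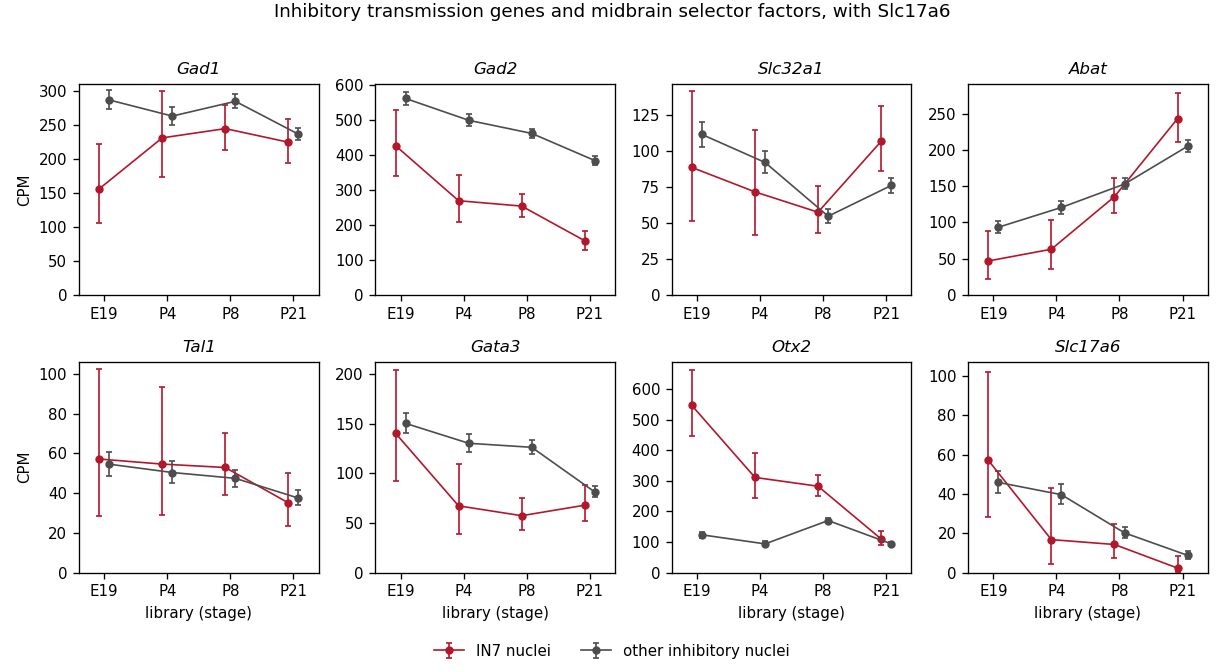
CPM of GABAergic genes, selector factors and Slc17a6 at the 4 stages in IN7 (red) and in the other inhibitory neurons (grey). Bars are exact Poisson 95% intervals for counting error; Gad2 is lower in IN7 at all stages, and Otx2 is higher in IN7 at E19 and P4 and close to the other subtypes at P21.

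Selector factors of midbrain GABAergic neurons were present in IN7. Otx2 was the member whose time course differed most clearly from that of the pooled other inhibitory neurons. Otx2, the homeodomain factor that patterns the midbrain, stood at 546 (447 to 661), 311 (244 to 390.5), 282 (249 to 319) and 110.1 (88.9 to 135) CPM in IN7, against 124, 94, 170.2 and 94.4 CPM in the other inhibitory neurons. The log2 ratio of IN7 to the others was 2.10, 1.67, 0.71 and 0.21. IN7 ranked first of 12 subtypes at E19 and P4, 3rd at P8 and 6th at P21. At P4 this rank was level with IN12, at 310.8 (228 to 413) CPM, and IN3, at 309 CPM. The change of Otx2 from E19 to P21 was −2.26 (−2.73 to −1.90) on the log2 scale in IN7 and −0.37 in the others. This course was not particular to IN7. The subtype IN5 had Otx2 at 390.1, 241, 239 and 91.9 CPM, with log2 ratios of IN7 to IN5 of only 0.48, 0.36, 0.23 and 0.25. Tal1, like Gata3 a factor of the GABAergic lineage of the midbrain, was at 57.2, 54.6, 52.9 and 35.1 CPM in IN7 and 54.6, 50.4, 47.5 and 37.5 CPM in the others. Gata3 was at 140.4, 67.3, 57.3 and 67.9 CPM against 150.3, 130.3, 126 and 81.2 CPM. Sox14, a further factor of this lineage, was at 15.6, 0, 8.82 and 1.17 CPM in IN7 and 51.8, 37.2, 56 and 27.9 CPM in the other subtypes. Pax3, a marker of the dorsal midbrain, was at 5.2, 4.2, 5.51 and 8.2 CPM against 32.9, 53.7, 20.8 and 35.6 CPM. Sox14 and Pax3 were the 2 members of the 11 compared that were at least 2-fold lower in IN7 in every library, and none was 2-fold higher. Over all genes compared, 1.51% were lower and 0.584% higher.

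Across all genes, the log2 ratio of IN7 to the other inhibitory neurons was computed with 5 CPM added to both, for 9073 genes with at least 20 CPM in IN7 or in the others. Of these, 53 genes (0.584%) were at least 2-fold higher in IN7 in each of the 4 libraries and 137 genes (1.51%) at least 2-fold lower. Among the 20 genes with the largest ratio in their weakest library, 16 were the highest of all 12 subtypes in every library, and of the 10 genes at the other end 4 were the lowest. These genes were chosen for their ratio, so both counts only describe how far single other subtypes come near IN7. The median of the mean log2 ratio was −0.03 over all genes, −0.58 over the 11 selector factors, −0.19 over 54 identity factors and −0.57 over 26 receptors for modulators. It was −0.07 over 65 axon guidance genes, −0.16 over 72 synaptic adhesion genes, −0.30 over 59 ion channels and 0.07 over 20 glutamate receptors. Of 24 immature and 30 mature neuron genes and 5 immediate early genes, none was 2-fold higher or lower in every library, and of 13 matrix genes the heparan sulfate enzymes Hs3st4 and Ndst3 were lower.

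The gene with the largest ratio was a transcription factor. Meis1 (ENSMUSG00000020160, chromosome 11, 18879817 to 19018985, minus strand), a homeodomain factor of the TALE family, stood at 796 (675 to 932), 949.9 (830.1 to 1082), 916 (855 to 981) and 679 (625 to 737) CPM in IN7. In the other inhibitory neurons it was at 34.7, 17.1, 29.3 and 25 CPM, giving log2 ratios of 4.34, 5.43, 4.75 and 4.51. The next subtype was IN11, at 129.6, 71.5, 299.8 and 189 CPM, so no other inhibitory subtype came within 2-fold of IN7 in any library. Meis2, its close relative, went the other way, at 72.8, 21, 47.4 and 18.7 CPM in IN7 and 413, 261, 390.0 and 356 CPM in the others. The log2 ratio of Meis1 to Meis2 UMIs, not corrected for gene length, was 3.45 (2.66 to 4.35), 5.5 (4.25 to 7.13), 4.27 (3.83 to 4.75) and 5.18 (4.47 to 6.00) in IN7. In the other inhibitory neurons it was −3.58, −3.93, −3.74 and −3.83. Gm16141, a noncoding gene that lies within Meis1 on the opposite strand, was at 36.4, 33.6, 27.6 and 14.1 CPM in IN7 and at most 0.693 CPM in the others. The sources used here do not say whether counting was by strand, and reads of Gm16141 and Meis1 may not be told apart.

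Meis1 was found in most IN7 nuclei and not in a few of them alone. After each nucleus was thinned to 2300 UMIs, a Meis1 UMI was present in 56.7% (37.4 to 74.5), 80.0% (63.1 to 91.6), 70.9% (60.1 to 80.2) and 71.9% (59.2 to 82.4) of IN7 nuclei. The same share was 6.72%, 2.84%, 4.09% and 4.29% in the other inhibitory neurons and 12.6%, 7.71%, 9.11% and 8.80% in excitatory neurons. At full depth it was 93.3%, 85.7%, 93.0% and 98.4% in IN7. Astrocytes also carry Meis1, with 503, 429, 481 and 334 CPM and a thinned share of 61.7%, 56.1%, 66.5% and 47.4%, at median depths of 4697, 4329, 5124 and 5525 UMIs. The summed level of 5 astrocyte markers was 46.8, 71.5, 57.3 and 26.9 CPM in IN7. In the other inhibitory neurons it was 45.6, 41.5, 57.0 and 25.9 CPM, so the sum was higher in IN7 at P4 and near the others elsewhere. Slc7a10 was at 0 in IN7 at E19 and P4 and Aldh1l1 at 0 at P4, where 1 UMI was worth 5.20 CPM (E19) and 4.20 CPM (P4). A part of astrocyte RNA in these Meis1 values was not tested.

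Dmbx1 and Sall4 were the other transcription factors among the 20 leading genes. Dmbx1, a homeodomain factor of the midbrain, stood at 187, 96.7, 94.8 and 50.3 CPM in IN7 against 12.3, 11.5, 15.4 and 8.23 CPM. Sall4, a zinc finger factor known from stem cells, was at 31.2, 50.4, 41.9 and 16.4 CPM against 1.56, 1.3, 1.67 and 0.287 CPM. The nuclear receptor Rora was at 4690.4, 7381, 7561 and 7728 CPM against 1371, 1459, 2239 and 3584 CPM. These 3 genes were high in every IN7 library, Rora with little change after P4 and Dmbx1 with its lowest value at P21. Irx1, Irx2 and Sox2 were also at least 2-fold higher throughout, Irx1 at 93.6, 33.6, 30.9 and 17.6 CPM against 12.5, 10.9, 6.68 and 3.45 CPM. In all, 5 of 54 neuronal identity factors compared were higher in every library, Meis1, Rora, Irx1, Irx2 and Sox2, and 7 were lower. The lower group was Tfap2b, Meis2, Ebf1, Ebf3, Nfib, Rorb and Foxp2. Over all genes compared, 0.584% were higher in every library and 1.51% lower. Foxp2, a forkhead factor, was at 156, 71.5, 36.4 and 22.2 CPM in IN7 and 553, 450.1, 609.7 and 478 CPM in the others, and Tfap2b at 57.2, 25.2, 21 and 2.34 CPM and 369.6, 215, 282 and 94.5 CPM.

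**Figure D2:**
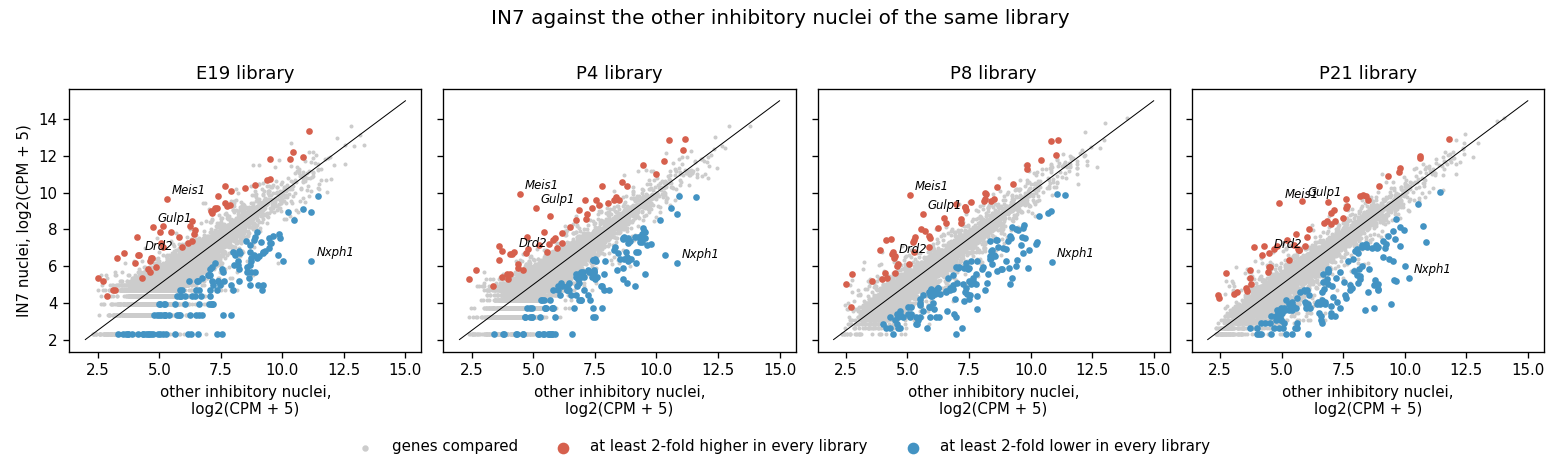
Level of each compared gene in IN7 (vertical axis) against the other inhibitory neurons (horizontal axis), as log2(CPM + 5), in 1 panel per library. Red points are the 53 genes at least 2-fold higher and blue points the 137 genes at least 2-fold lower in every library; Meis1 and Gulp1 lie far above the diagonal and Nxph1 far below it in all 4 panels.

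The leading genes included the receptors Npffr1 and Drd2. Npffr1 (ENSMUSG00000020090, chromosome 10, 61595492 to 61628565, plus strand), a G protein-coupled receptor for RFamide peptides, stood at 83.2 (47.6 to 135), 109 (71.4 to 160.1), 111 (90.7 to 135) and 132 (109 to 159) CPM in IN7. The other inhibitory neurons had 4.85, 8.29, 9.93 and 14.7 CPM, a log2 ratio of 2.80 to 3.16. The D2 dopamine receptor Drd2 (ENSMUSG00000032259, chromosome 9, 49340627 to 49408177, plus strand) was at 93.6 (55.5 to 148), 105 (68 to 155), 81.6 (64.1 to 102) and 98.4 (78.4 to 122) CPM in IN7 and 13.3, 13.7, 16.9 and 17.5 CPM in the others, with log2 ratios of 2.43, 2.56, 1.98 and 2.20. Both receptors were thus raised at all stages with little trend across age. Thinned to 2300 UMIs, a Drd2 UMI was found in 26.7%, 17.1%, 20.9% and 23.4% of IN7 nuclei and in 2.67%, 2.99%, 4.39% and 3.55% of the other inhibitory neurons. At full depth, Meis1 and Drd2 UMIs were seen together in 12, 12, 38 and 42 IN7 nuclei. Th and Slc6a3, which mark dopamine-making neurons, were at 0 in IN7 in every library.

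Of the 26 receptors for modulators that were compared, Drd2 and the mu opioid receptor gene Oprm1 were higher in every library and 7 were lower. Over all genes compared, 0.584% were higher and 1.51% lower. Oprm1 stood at 125, 143, 232 and 112 CPM in IN7 against 30.2, 44.4, 47.8 and 47.6 CPM. The lower genes were Chrm3, Htr1f, Htr2a, Htr2c, Hcrtr2, Ntrk3 and Gfra1. Chrm3, the M3 muscarinic acetylcholine receptor, was at 20.8 (5.67 to 53.3), 42 (20.2 to 77.3), 75 (58.2 to 95.1) and 73.8 (56.7 to 94.4) CPM in IN7 and at 577, 728, 691 and 738 CPM in the others. Its log2 ratio was −4.50, −3.96, −3.12 and −3.24, and IN7 had the lowest Chrm3 of all subtypes in each library, with 4 of its 10 UMIs at P4 in 1 nucleus. Htr2c, a serotonin receptor, was at 10.4, 25.2, 18.7 and 85.5 CPM against 133, 211, 155 and 551 CPM, low in IN7 at every stage although it was highest at P21 in both. Hcrtr2, an orexin receptor, was at 15.6, 21, 19.9 and 10.5 CPM against 83.9, 81.8, 90.4 and 59.2 CPM.

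Of 20 glutamate receptor genes compared, Grik3 and Grin3a were lower in every library, against 1.51% of all genes compared. Grm3, a metabotropic receptor, stood at 2902, 1984, 1767 and 569 CPM against 445, 409, 410.3 and 293 CPM, so its log2 ratio of 2.69, 2.26, 2.09 and 0.95 fell short of 2-fold at P21. Grin3a, an NMDA receptor subunit, was at 26, 189, 191 and 131 CPM against 408, 561, 561 and 323 CPM. None of the 20 GABA-A and glycine receptor subunits compared was 2-fold higher or lower throughout. Of 59 ion channel genes, none was higher in every library and 4 were lower, Kcnip1, Kcnj3, Kcnn3 and Cacna2d3. Kcnip1, a calcium-binding subunit of A-type potassium channels, was at 119.6, 156, 99.3 and 10.5 CPM in IN7 and 694, 678, 816 and 699 CPM in the others, with log2 ratios of −2.49, −2.09, −2.98 and −5.50, the lowest at P21.

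Gulp1 had the second largest ratio after Meis1. Gulp1 (ENSMUSG00000056870, chromosome 1, 44551511 to 44796838, plus strand), an adaptor for the engulfment of dying cells and for receptor traffic, stood at 270.4 (202 to 355), 563 (472 to 667), 458 (415 to 504) and 733 (677 to 793) CPM in IN7. It was at 21.7, 29.3, 44 and 52.5 CPM in the other inhibitory neurons, with log2 ratios of 3.37, 4.05, 3.24 and 3.68. Its share of nuclei with a UMI after thinning was 50%, 54.3%, 59.3% and 79.7% in IN7, and 3.36%, 5.69%, 8.68% and 9.62% in the others. Meis1 and Gulp1 UMIs occurred together in 19, 26, 74 and 60 IN7 nuclei at full depth. Astrocytes had 236, 285, 277 and 238 CPM of Gulp1, beside the astrocyte marker sums given above.

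Several further members of the leading 20 are proteins of the cell surface. Lrp4, the agrin receptor of the neuromuscular junction, was at 98.8, 75.7, 106 and 93.7 CPM against 6.93, 7.32, 16.1 and 13.6 CPM. Fat4, a giant cadherin, was at 889, 782, 717 and 350.1 CPM against 165, 131, 188 and 109 CPM, and the sorting receptor Sorcs2 at 577, 567, 584 and 477 CPM against 149.8, 162, 157 and 123 CPM. The IN7 values of these 3 genes exceeded those of the pooled other inhibitory neurons in all libraries, but single subtypes came closer. IN5 had Lrp4 at 61.7, 50.5, 65.4 and 45.5 CPM and Fat4 at 859, 577, 576 and 255 CPM, and IN12 had Lrp4 at 79.1 CPM at P21. For Sorcs2 the nearest were IN11 at E19 and P4 (457 and 327 CPM), IN9 at P8 (320 CPM) and IN6 at P21 (274 CPM). Sez6, Ldlrad3 and the synaptotagmin Syt6 were likewise higher, Syt6 at 72.8, 118, 171 and 167 CPM against 19.8, 22.6, 14.9 and 32 CPM. For Ldlrad3, IN12 came near IN7 at P4, with 172 CPM against 181 CPM. Fibcd1, Cpne4 and Dmbx1 were not highest in IN7 everywhere: IN11 had more Fibcd1 at E19, P4 and P8 (532, 452, 249 and 123 CPM, against 281, 227, 168 and 132 CPM in IN7), IN6 more Cpne4 at P8 and IN11 more Dmbx1 at P21. The noncoding gene AC163354.1 was the fourth exception, with IN12 highest at E19.

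Vwc2 and Vwc2l encode related secreted proteins with von Willebrand factor C domains, of which Vwc2 (brorin) is known to antagonise bone morphogenetic proteins. Vwc2 stood at 343, 529.6, 661 and 709.5 CPM in IN7 and 75.9, 109, 119.6 and 114 CPM in the others. Vwc2l stood at 681, 782, 584 and 521 CPM and 198, 179.7, 155 and 136 CPM. Vwc2 was highest in IN7 at P21 and Vwc2l at P4, and both were above the other inhibitory neurons at every stage. Since Meis1 and Otx2 are DNA-binding factors, the 250 bases before the RefSeq transcript starts (GRCm38.p6) of the 30 leading and lowest genes were searched on both strands for TGACAG, a core of MEIS sites, and for TAATCC, a core of OTX sites. The motifs were chosen after the expression values were seen, and 14 of the 20 leading and 7 of the 10 lowest genes had such a window. TGACAG was present in 1 of 18 windows of the leading genes and 2 of 11 windows of the lowest genes, both of Zfp385b, compared with 15.9% of all 32851 windows of that length. TAATCC was in none of these windows and in 6.25% of all. The window with a match among the leading genes is that of Vwc2, which lies upstream of the annotated gene at chr11:11113766-11114015 on the plus strand, and it is shown to place the match, in capitals, 126 bases before the start.
Vwc2: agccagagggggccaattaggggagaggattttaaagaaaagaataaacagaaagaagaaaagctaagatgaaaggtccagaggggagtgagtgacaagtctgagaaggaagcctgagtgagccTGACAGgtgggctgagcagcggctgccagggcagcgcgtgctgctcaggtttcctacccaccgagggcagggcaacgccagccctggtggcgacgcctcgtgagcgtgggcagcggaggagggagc
A match of letters does not show that a factor binds there.

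Genes of axon guidance and cell contact included members on both sides. Of 65 axon guidance genes compared, Efna5, Epha4 and Nrp2 were higher in every library and Sema3e, Sema5a, Slit1, Slit2 and Slit3 were lower. The shares over all genes compared were 0.584% and 1.51%. Epha4, an ephrin receptor, was at 463, 458, 532 and 607 CPM against 135, 139, 162 and 199.6 CPM. The nearest single subtype for Epha4 was IN9, at 416, 283, 405 and 331 CPM, within 2-fold of IN7 in each library. Efna5, a ligand of Epha4, was at 1617, 1324, 1252 and 912 CPM against 652, 442, 392 and 286 CPM. The semaphorin receptor Nrp2 was at 551, 635, 747 and 388 CPM against 149.6, 199.5, 332 and 174 CPM. Slits are secreted repellents of growing axons, and all 3 were low in IN7. Slit2 was at 93.6, 113, 108 and 51.5 CPM against 267, 303, 328 and 282 CPM. Slit1 was at 0, 37.8, 17.6 and 4.68 CPM against 158, 162, 166 and 125 CPM, which at E19, with no UMI in IN7, made it at least 10.2-fold lower, taking 3 UMIs as the limit of detection. Slit3 was at 15.6, 4.2, 13.2 and 12.9 CPM against 99.5, 176, 118 and 93.7 CPM.

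Of 72 synaptic adhesion and organiser genes, 2 were higher in every library and 9 lower, against 0.584% and 1.51% of all genes compared. The higher genes were the latrophilin Adgrl2, at 1357, 773, 787 and 578 CPM against 464, 352, 282 and 192 CPM, and its ligand family member Flrt2, at 577, 374, 319.8 and 339.5 CPM against 159, 134, 138 and 139 CPM. Nlgn1, the neuroligin of excitatory synapses, was at 894, 862, 933 and 1063 CPM against 2769, 3131, 2705 and 2727 CPM, and Cbln4, Il1rapl2, Adgrb1, Dscaml1, Sdk1, Cntnap5c, Elfn1 and Kirrel3 were lower too. Among 24 cadherins, Pcdh15 was higher (3910.4, 5078, 4259 and 3743 CPM against 1843, 2135, 2086 and 1583 CPM) and Cdh4, Cdh22 and Cdh23 lower.

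Nxph1 (ENSMUSG00000046178, chromosome 6, 8948431 to 9249032, plus strand), a secreted ligand of neurexins found in many inhibitory neurons, headed the genes that were lower in IN7. It was at 72.8 (39.8 to 122), 67.3 (38.4 to 109), 68.4 (52.4 to 87.7) and 35.1 (23.7 to 50.1) CPM in IN7 and 2312, 1806, 1869 and 1141 CPM in the other inhibitory neurons, with log2 ratios of −4.90, −4.65, −4.67 and −4.84. The subtype IN9 carried the most, 8858, 9599, 8438 and 4212 CPM, and IN11 was lower than IN7 at E19. After thinning, 10.0%, 25.7%, 12.8% and 7.81% of IN7 nuclei had an Nxph1 UMI, against 61.4%, 55.9%, 51.9% and 50.1% of the other inhibitory neurons. The share in IN7 lay below that of astrocytes (29.6%, 30.5%, 23.6% and 9.41%) and of excitatory neurons (22.7%, 31.1%, 26.3% and 34.0%) in each library, so no expression above background is read from it.

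The remaining genes among the 10 lowest were of mixed kinds. Il1rapl2, a synaptic adhesion protein, was at 26, 25.2, 55.1 and 31.6 CPM against 595, 556, 944 and 792 CPM, and the acid-sensing channel Asic2 at 72.8, 92.5, 152 and 155 CPM against 1039, 1307, 1232 and 1842 CPM. Dscaml1, an adhesion molecule of the immunoglobulin family, was at 20.8, 21, 7.72 and 9.37 CPM against 247, 227, 222 and 123 CPM. All 3 were low in IN7 at each stage. The zinc finger genes Zfp536 and Zfp385b, the membrane proteins Tmem132c and Tmem132d and the noncoding gene Gm47757 completed the set. Gm47757 had 1 UMI in all IN7 nuclei together, at P8, against 72.6, 91.2, 142 and 62.9 CPM in the others. Of 11 calcium-binding and related interneuron genes compared, Nos1, Reln and Kit were lower and none was higher, against 1.51% and 0.584% of all genes. Reln, the secreted protein reelin, was at 52, 37.8, 28.7 and 7.03 CPM against 185, 186, 296 and 331 CPM.

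**Figure D3:**
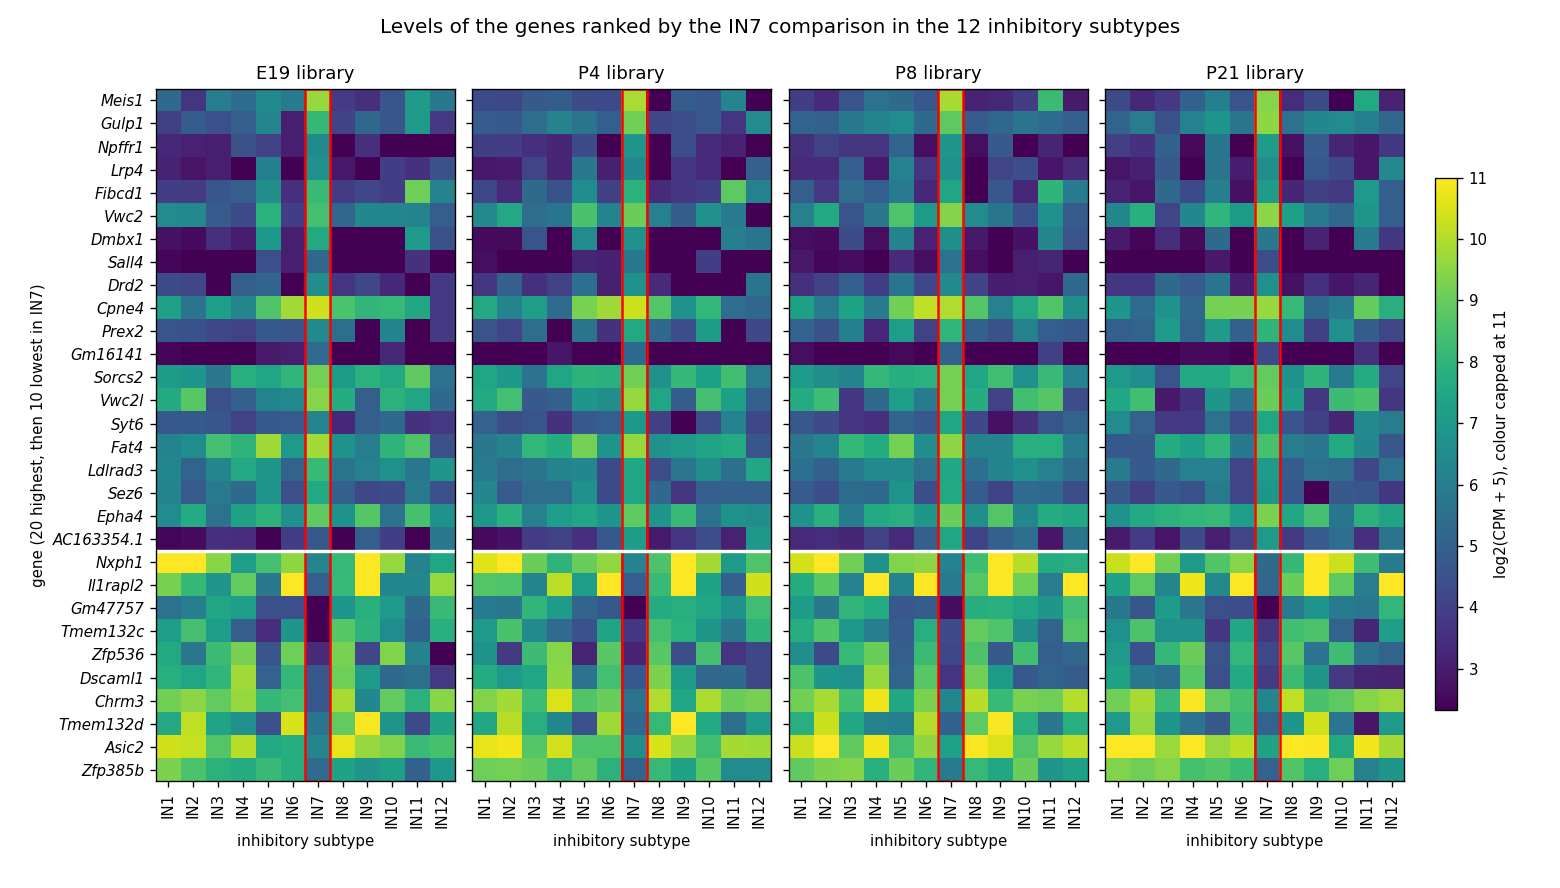
Level of the 20 leading and 10 lowest genes of IN7 in all 12 inhibitory subtypes and 4 libraries, as log2(CPM + 5), with IN7 boxed in red. Meis1, Gulp1 and Npffr1 are highest in IN7 in every library, whereas Fibcd1 and Cpne4 are also high in IN11 or IN6.

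IN5, of which 146 of 324 nuclei shared the main cluster number of IN7, was compared separately. These ratios use the same IN7 counts as the comparison above, so the 2 comparisons are not independent. Of 9080 genes compared, 23 (0.253%) were at least 2-fold higher in IN7 than in IN5 in every library and 42 (0.463%) at least 2-fold lower. Meis1 led the higher genes, at 81.4, 15.4, 35.3 and 62.1 CPM in IN5. Gulp1 was at 73, 46.1, 87.8 and 107 CPM in IN5 and Vwc2l at 70.2, 112, 136 and 116 CPM, both at least 2-fold below the IN7 values in every library. Pax7, a paired homeobox factor of the dorsal midbrain, was at 78, 118, 49.6 and 35.1 CPM in IN7 and 19.6, 15.4, 6.02 and 6.12 CPM in IN5, while the other inhibitory neurons together had 127, 97.6, 117 and 57.4 CPM.

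On the other side, Col25a1, a membrane collagen, was at 772, 1060.0, 1615 and 760.2 CPM in IN5 and 88.4, 67.3, 115 and 21.1 CPM in IN7. Foxp2 was at 887, 882, 1004 and 817 CPM in IN5, and Glra1, a glycine receptor subunit, at 138, 199.7, 257 and 241 CPM in IN5 against 10.4, 42, 23.2 and 59.7 CPM in IN7. Col25a1, Foxp2 and Glra1 were thus high in IN5 and low in IN7 at each stage. Several leading genes differed less between the 2 subtypes. Vwc2 was at 230.1, 356, 389.9 and 256 CPM in IN5, Sez6 at 112, 101, 108 and 54.2 CPM and Drd2 at 30.9, 39.5, 47.3 and 45.5 CPM, and none of them, nor Lrp4, was 2-fold lower there in every library. Otx2 was at 390.1, 241, 239 and 91.9 CPM in IN5, and Dmbx1 at 118, 85.6, 68 and 35 CPM. Across 8691 to 9987 genes per library, centred on the mean of the subtypes, the Spearman correlation with IN7 was highest for IN5 in each library. It was weak, 0.05, 0.04, 0.15 and 0.09, and the subtypes share a library and a centre, so no finding rests on it.

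The change of IN7 between stages was followed next, over genes that reached 20 CPM in IN7 in either stage of a step. From E19 to P4, 850 of 8299 genes (10.2%) were at least 2-fold higher and 824 (9.93%) at least 2-fold lower. From P4 to P8 these numbers were 257 (3.33%) and 494 (6.39%) of 7727, and from P8 to P21 469 (6.42%) and 516 (7.06%) of 7305. Over the whole span from E19 to P21, 1169 genes (14.3%) rose and 1575 (19.3%) fell among 8176, against 434 (5.31%) and 873 (10.7%) in the other inhibitory neurons. The others were scored on these same genes, chosen by IN7 level, here and in the lists below. Genes raised in IN7 by counting error alone can pass this filter. Counts for IN7 and for the others are therefore not on an equal footing, and how much this adds was not tested. The words rose and fell are used here for a change of at least 2-fold between 2 libraries, without a test. The other inhibitory neurons are a pool whose mix of subtypes differed between libraries. IN1 gave 266 of its 863 nuclei at E19 and 52 of 1002 at P8, and IN3 gave 67 and 215. Stage changes given for the others, above and below, are those of this pool and not of a fixed mix of subtypes.

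The UMI totals bear on these numbers. When the other inhibitory neurons were thinned to the UMI totals of IN7, 662 genes were higher and 702 lower from E19 to P4, 204 and 409 from P4 to P8, and 291 and 347 from P8 to P21. The thinning drew from summed counts, so it matched UMI totals but not the number of nuclei or the spread between them. Genes of the thinned set were chosen by its own levels and not by those of IN7. Over the whole span the thinned set had 857 higher and 1331 lower genes, nearer to the IN7 numbers than the unthinned ones. Without thinning, the other inhibitory neurons had 20 (0.241%) and 39 (0.47%), 12 (0.155%) and 25 (0.324%), and 180 (2.46%) and 211 (2.89%) for the genes chosen by IN7 level. Among genes of at least 100 CPM, IN7 had 127 higher and 108 lower from E19 to P4 against 46 and 73 in the thinned set, 20 and 41 against 19 and 38 from P4 to P8, and 130 and 115 against 57 and 74 from P8 to P21. The step from P4 to P8 had the fewest such genes in IN7 and in the other inhibitory neurons.

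Genes of the immature cytoskeleton and growth fell together. Of 26 genes listed, all 24 that reached 20 CPM were at least 2-fold lower at P21 than at E19 in IN7, with a median log2 change of −2.97, and all 24 were also lower in the other inhibitory neurons, with a median of −2.84. On plain ratios with counts of 0 set to 3 UMIs the medians were −3.09 and −3.22. The median over all genes was −0.10 in IN7, and 19.3% of them fell. Tubb2b, a tubulin of growing neurites, was at 1061, 563, 189.7 and 4.68 CPM in IN7, and Nnat, a small membrane protein of developing neurons, at 1529, 605, 346 and 16.4 CPM. Each level was lower than the one before, with log2 changes from E19 to P21 of −6.78 and −6.16 in IN7 and −6.46 and −5.19 in the others. Tubb5 at 702, 349, 128 and 11.7 CPM and the actin-binding peptide gene Tmsb10 at 473, 349, 127 and 12.9 CPM followed the same course. Cd24a, a surface protein of young neurons, was at 161, 25.2, 7.72 and 0 CPM, at least 45.9-fold lower at P21 than at E19.

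Of 29 genes of mature neurons compared, out of 33 listed, 21 rose in IN7 from E19 to P21 and none fell, with a median log2 change of 1.73. In the other inhibitory neurons 15 of these genes rose and 1 fell, with a median of 1.02. On plain ratios these medians were 1.75 and 1.10. The shares over all genes were 14.3% rising and 19.3% falling in IN7, and 5.31% and 10.7% in the others. Scn1a, a sodium channel of fast-firing neurons, was at 109, 189, 255 and 508 CPM in IN7, the potassium channel Kcnc1 at 57.2, 101, 104 and 234 CPM and the vesicle calcium sensor Syt2 at 15.6, 25.2, 37.5 and 130.0 CPM. All 3 were highest at P21. Kcna1, a potassium channel of axons, was at 0, 0, 1.1 and 71.4 CPM, with UMIs in 35 of 64 nuclei at P21 and a log2 change from P8 to P21 of 3.65 (3.48 to 11.34), against 2.0 in the others.

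NMDA receptor subunits and chloride transporters were compared as pairs, since maturing neurons are known to exchange Grin2b for Grin2a and Slc12a2 for Slc12a5. Grin2a was at 286, 551, 969 and 1202 CPM in IN7 and Grin2b at 941, 853, 782 and 518 CPM. The log2 ratio of Grin2a to Grin2b UMIs, which is not corrected for length, was −1.72 (−2.18 to −1.28), −0.63 (−0.96 to −0.31), 0.31 (0.17 to 0.45) and 1.22 (1.05 to 1.38) in IN7. In the other inhibitory neurons it was −1.72, −0.90, −0.76 and 0.14, so the ratios were the same at E19 and higher in IN7 at P8 and P21. The ratio of the chloride exporter Slc12a5 to the importer Slc12a2 was 0.26 (−1.07 to 1.63), 1.35 (0.30 to 2.50), 2.27 (1.70 to 2.89) and 2.49 (1.95 to 3.07) in IN7 and 1.57, 1.84, 1.93 and 1.98 in the others. The GABA-A receptor subunit gene Gabrg3 was at 109 (67.6 to 167), 639 (541 to 749), 693 (639 to 749) and 595 (544 to 649) CPM in IN7 and 604, 926, 921 and 832 CPM in the others. It rose from E19 to P21 by 2.39 (1.82 to 3.15) on the log2 scale in IN7, compared with 0.46.

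**Figure D4:**
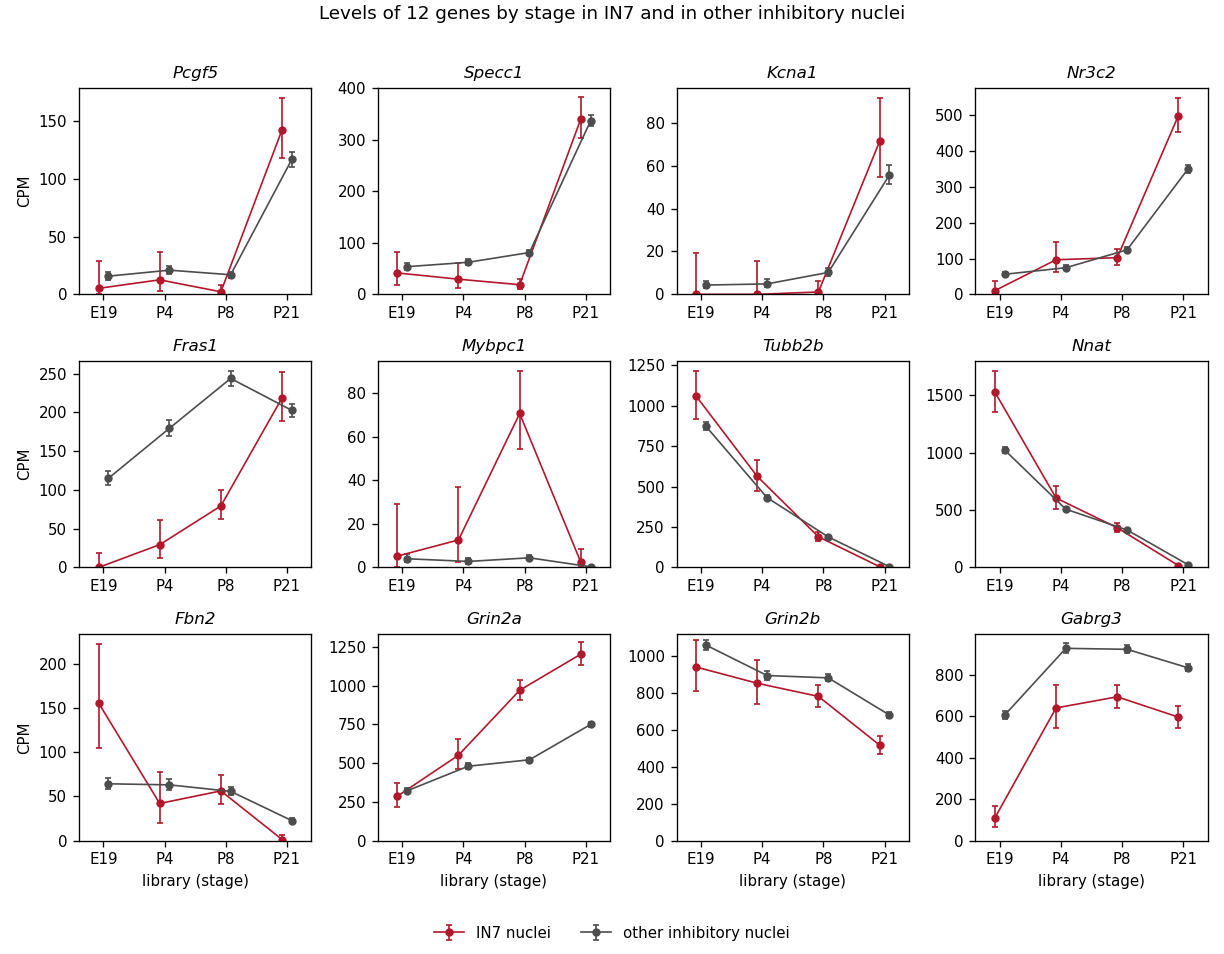
CPM of 12 genes at the 4 stages in IN7 (red) and in the other inhibitory neurons (grey), with exact Poisson 95% intervals for counting error. Pcgf5, Specc1 and Kcna1 are highest at P21, Tubb2b and Nnat decline from stage to stage, and Fras1 and Gabrg3 start lower in IN7 than in the other subtypes.

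Among the 6 largest rises from P8 to P21 were Pcgf5, Specc1, Gm13629 and Kcna1. Pcgf5, a subunit of a Polycomb repressive complex, was at 5.2, 12.6, 2.21 and 143 CPM in IN7, with UMIs in 50 of 64 nuclei at P21, and at 15.8, 21, 17 and 117 CPM in the others. Its log2 change from P8 to P21 was 4.36 (4.13 to 9.08) in IN7 and 2.47 elsewhere. Specc1 was at 41.6, 29.4, 18.7 and 341 CPM, with changes of 3.86 (3.48 to 4.98) and 1.99. Both genes were low at the 3 earlier stages. The summed level of 5 oligodendrocyte markers was 41.6, 46.2, 59.6 and 460.1 CPM in IN7, with Mobp at 0 until P8 and Mag at 0 at E19 and P4, and 58.9 to 327 CPM in the other inhibitory neurons. Their part in the rises to P21 was not tested.

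The 6 largest falls from P8 to P21 were of Tubb2b, Nnat, Mybpc1, Gmip, Fbn2 and Fabp7. Mybpc1, a myosin-binding protein known from muscle, was at 5.2, 12.6, 70.6 and 2.34 CPM in IN7, high at P8 alone, and at 3.99, 2.76, 4.42 and 0.287 CPM in the others. It was present in 19 of 86 nuclei at P8, with 15.6% of its UMIs in the highest nucleus. Fbn2, the matrix protein fibrillin-2, was at 156, 42, 56.2 and 1.17 CPM, and Fabp7, a fatty acid-binding protein of radial glia, at 260.0, 151, 62.9 and 2.34 CPM.

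Over the whole span from E19 to P21, the 6 largest rises were Gm28928, Gm13629, Fras1, Mical2, Nr3c2 and Lncpint. Nr3c2, the mineralocorticoid receptor, was at 10.4, 96.7, 103 and 500.0 CPM in IN7, with a log2 change of 5.04 (3.73 to 8.64) against 2.54 in the others. At P4, 12 of its 23 UMIs (52.2%) were in 1 nucleus. Fras1, a basement membrane protein, was at 0, 29.4, 79.4 and 219 CPM in IN7, at least 14-fold higher at P21 than at E19, whereas the others held 115, 179.7, 244 and 203 CPM. Fras1 was thus undetected in IN7 at E19, below the other subtypes until P8, and near them at P21. The falls over the whole span were led by Tubb2b, Nnat, Tubb5, Fabp7, Cd24a and Tmsb10. Of 50 identity factors compared, 3 rose and 31 fell in IN7, and 1 and 21 in the others. Of 61 axon guidance genes, 7 rose and 19 fell in IN7, and 0 and 18 in the others. Of 56 ion channels, 21 rose and 9 fell in IN7, and 13 and 7 in the others. Over all genes 14.3% rose and 19.3% fell in IN7, so the rises of guidance genes and the falls of channels were near that share.

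The first step, from E19 to P4, had Ttr, Gm28928, Plekha7, Me3, Cpne8 and Kcnab1 as its 6 largest rises. Of the 44 Gm28928 UMIs at P4, 27 (61.4%) were in 1 nucleus. Kcnab1, a potassium channel subunit, was at 20.8, 202, 201 and 343 CPM in IN7 and 85.6, 73.5, 83.8 and 178 CPM in the others, with log2 changes of 3.0 (1.83 to 5.21) and −0.21. Cpne8, a copine, was at 20.8, 244, 227 and 179 CPM in IN7 and 53.4, 78.7, 114 and 132 CPM in the others. Both were lowest at E19 in IN7 and stayed above 100 CPM afterwards. Ttr, the transthyretin of choroid plexus epithelium, was the largest rise of this step, from 0 to 88.3 CPM, in 16 of 35 nuclei. It was at 95.9 CPM in the other inhibitory neurons at P4, and 4 epithelial and ependymal markers summed to 0 to 92.5 CPM in IN7 over the libraries and to 0.520 to 97.6 CPM in the others.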

How the data were processed

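Nuclei of the superior colliculus were captured with 10x Genomics 3′ v3 chemistry after a sucrose cushion, with a target of 2000 nuclei per sample, per the labels' protocols. Reads were processed with Cell Ranger 3.0.2 on mm10, per the submitters' processing notes, and aligned to a pre-mRNA reference, per the labels' protocols, so intronic reads are counted. The authors deposited raw UMI counts of 31053 genes and a table of nuclei with stage, class, subtype, cluster, reference labels and the percent of mitochondrial UMIs as the authors computed it. How nuclei were filtered, doublets treated, libraries integrated and subtypes named is not given in the sources used here, and no further filter was applied. Another 4 columns of per-nucleus values were not used. Gene positions are from GENCODE M21 (GRCm38), which held 31011 of the 31053 identifiers; of the 30 leading and lowest genes, 7 overlapped no other gene, 12 shared bases with one on their own strand and 19 with one on the opposite strand.

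Counts were summed over the nuclei of each population and library and scaled to CPM. Ratios are log2 with 5 CPM added to both values, so changes of low genes are understated. Intervals are exact Poisson for CPM and Clopper-Pearson for shares; 3 UMIs per library were taken as the detection limit for a count of 0. PCR duplicates are removed by UMIs, but neither kind of interval covers differences between animals. The total depth of IN7 was 192308 to 906758 UMIs per library. Genes named are the 20 leading and 10 lowest of the comparison with other inhibitory neurons (at least 20 CPM, ranked by the weakest library), the 6 largest rises and falls of each step (50 CPM or more at the higher of both), the 3 highest, lowest, most risen and most fallen genes of each fixed list, and the markers. Mitochondrial, ribosomal protein, haemoglobin, Xist, Tsix and Y-linked genes were not ranked. Of the genes picked by this rule, some are not reported here. Genes outside this rule were picked with their values known. The members and lists were chosen with earlier results of these data known. Computations used Python 3.11.15, NumPy 2.4.6, SciPy 1.17.1, pandas 2.3.3 and matplotlib 3.10.9 and were checked on simulated data. Alternatives covered the pseudocount, the minimum level, scaling, weighting of nuclei, the choice of nuclei and leaving out a library.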

Additional observations from a re-analysis of the deposited data

Results flagged for a closer look

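Hmcn1, which encodes the matrix protein hemicentin-1, moved in opposite directions in IN7 and in the other inhibitory neurons from P4 to P8. In IN7 it was at 20.8, 54.6, 2.21 and 3.51 CPM in the order E19, P4, P8 and P21, a log2 change of −3.05 (−7.82 to −2.49) from P4 to P8. In the other inhibitory neurons it was at 12, 20.7, 53.8 and 53.4 CPM, a change of 1.20. With 1 library per stage the difference was not tested. Of the 13 UMIs of Hmcn1 in IN7 at P4, 11 (84.6%) were in 1 nucleus.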

How the results depend on the processing

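No paired analysis was possible because each stage has 1 library. The planned filter that left out every nucleus with a UMI of Slc17a6 or of a glial marker kept 10, 10, 18 and 1 IN7 nuclei, under the minimum of 20, and was not run; a milder filter, at 5 or more such UMIs, and a restriction to the main cluster number were chosen after seeing the data. The 30 leading and lowest genes and the 36 step genes were picked for large ratios or changes in these same counts. Under the alternatives all 420 values of the former and all 288 of the latter kept their direction and 2-fold size. Because of how the genes were picked this was largely fixed beforehand, and no conclusion is drawn from it. Of the further summary values, 101 stayed within 1.5 times or 1 interval of the reported value and 49 moved. What moved were mostly counts of genes, and beyond the number of genes tested the cause was not tested. With 20 CPM added, 33 genes were higher and 86 lower than in the other inhibitory neurons (53 and 137 with 5 CPM); rises and falls were 358 and 305 from E19 to P4, 61 and 76 from P4 to P8, and 205 and 217 from P8 to P21. With no minimum level there were 1572 rises and 2096 falls from E19 to P4, 849 and 861 from P4 to P8, and 955 falls from P8 to P21. With a minimum of 100 CPM these were 127 and 108, 20 and 41, and 130 and 115. The number of genes whose IN7 change exceeded that of the other inhibitory neurons by 2-fold upward or downward was 792 and 687 for E19 to P4, 298 and 295 for P4 to P8, and 110 and 133 for P8 to P21. It was 262 and 199, 68 and 37, and 27 and 30 with 20 CPM added; 86 and 46, 16 and 16, and 20 and 15 at the 100 CPM minimum; and 1726 and 1640, 1028 and 665, and 251 and 356 with none. With 1 CPM added it was 460 downward for P4 to P8, and 183 and 215 for P8 to P21. The milder filter, which left 32 IN7 nuclei at P21, gave 177 and 289 for P8 to P21. Leaving out 1 library at a time gave 53 to 76 higher and 149 to 178 lower genes. As a share of all neurons IN7 was 1.34%, 1.80%, 4.40% and 4.50%, and without thinning Meis1 UMIs were in 93.3%, 93.0% and 98.4% of IN7 nuclei at E19, P8 and P21. The E19 and P4 libraries, with 192308 and 237909 IN7 UMIs, limit what can be seen of genes under 15.6 and 12.6 CPM, the level of 3 UMIs.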
